A study of Mus musculus with 384 samples.

Results

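The genes described here encode elastic fibre components, proteoglycans and matricellular proteins of the extracellular matrix, and they were followed in mesenchymal cells sorted from the adult mouse lung. The group was put together by gene function, as a list of 39 gene symbols out of 23422 genes with counts in the series. All 39 were present in the count table and in the expression table of the cells that passed quality filters. They fall into 8 classes: elastic fibre core and microfibril genes, fibulins and emilin, lysyl oxidases, small leucine-rich proteoglycans, large proteoglycans and basement membrane genes, fibronectin with tenascins and periostin, matricellular genes, and a metalloproteinase with its tissue inhibitors.

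Elastic fibres give the lung its recoil: secreted tropoelastin is laid onto a scaffold of fibrillin microfibrils, guided by fibulins, and is then crosslinked by lysyl oxidases. Small leucine-rich proteoglycans bind collagen fibrils and set their spacing, while laminins, nidogen and perlecan build the basement membrane under epithelium and around muscle. Matricellular proteins such as thrombospondins, periostin and the CCN family are secreted into the matrix but act mainly as signals to cells, not as structural elements.

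The series profiled single cells by SmartSeq2, a full-length method primed on polyadenylated RNA, from 4 mice: 2 per sorted line. Lgr5 cells came from Lgr5-IRES-CreERT2 mice crossed to Rosa26-lox-stop-lox-TdTomato and were sorted as Tom+ after induction, so the reporter marks cells in which the Lgr5 promoter drove Cre, and their descendants. Lgr6 cells came from Lgr6-EGFP-IRES-CreERT2 mice and were sorted as GFP+, which reads the Lgr6 promoter at the time of sorting. Both sorts removed CD31+, CD45+, CD11b+ and erythroid cells after collagenase and dispase dissociation; an EpCAM antibody was in the stain, but the labels of the single cells list no EpCAM gate. The labels give an age of 7 to 10 weeks for most experiments of the study, and its methods state a C57BL/6 background for the mice of lineage tracing, with none stated for these 4.

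The authors' filters left 29 and 28 cells from the Lgr5 animals, against 50 and 75 from the Lgr6 animals (mouse 1 and mouse 2 of each). Each cell was placed by its level of Acta2, the smooth muscle actin gene, in an Acta2-high class at a log2(TPM + 1) of 11 or more, or in an Acta2-lower class, where TPM is a share of all transcripts, corrected for transcript length. Lgr6 mouse 1 had 27 Acta2-high and 23 Acta2-lower cells, and Lgr6 mouse 2 had 38 and 37. Lgr5 mouse 1 had 1 Acta2-high cell and Lgr5 mouse 2 had 0, leaving 28 Acta2-lower cells in each. The cells nearest to the limit stood at 10.97 and 11.03, and 32 cells lay within 1 log2 unit of it. Because Acta2 sets the classes, its own difference between them is a description.

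Total counts over the kept cells were 9874249 and 13198680 for Lgr5 mice 1 and 2, and 28875278 and 124650544 for Lgr6 mice 1 and 2. The median cell of Lgr6 mouse 2 held 1537593 counts, against 263129 to 332588 in the other mice. No pair of kept cells held identical counts. The sum over the Acta2-lower cells of Lgr6 mouse 1 rests largely on 1 cell, which gave 4060496 of its 11223789 counts (36.2%) and the most reads of any cell in that sum for 28 of the 39 members. Its Acta2 level was 4.32 log2(TPM + 1). Many fold changes that involve this sum are therefore given without that cell as well, an alternative chosen after seeing the data.

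The sort genes followed the lines in part. Summed over each mouse, Lgr5 stood at 711 and 403 CPM (counts scaled to a common total) in the Lgr5 mice, against 29 and 63.7 CPM in the 2 Lgr6 mice (edgeR quasi-likelihood test, log2 fold change 3.59, SE 0.61, adjusted p = 0.327). Lgr6 mRNA did not separate the lines, with 30.2 and 63.9 CPM in the Lgr5 mice, against 46.2 and 48.4 CPM in the 2 Lgr6 mice, and the sign of its fold change (−0.01) turned with the scaling and the test. Within the Lgr6 mice, Lgr6 was 68.7 and 78 CPM in Acta2-high cells and 5.81 and 16.5 CPM in Acta2-lower cells. Lgr5 showed the opposite order there, at 0.95 and 4.62 CPM in Acta2-high and 75.7 and 128.1 CPM in Acta2-lower cells. A single cell in each mouse gave 98.7% and 60.7% of those Acta2-lower reads. Lgr5 was detected in 5 of 27 and 15 of 38 Acta2-high cells and in 6 of 23 and 13 of 37 Acta2-lower cells. At an Acta2 limit of 10 the order turned in mouse 1, with 40.9 CPM in Acta2-high and 1.14 CPM in Acta2-lower cells.

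The lines also differed in genes with no tie to the matrix, singled out after their values were seen. Xist, the RNA of the inactive X chromosome, was 6.89 and 25.2 CPM in the Lgr5 mice, against 1210.3 and 767 CPM in the 2 Lgr6 mice. The Y-linked Eif2s3y was 64.6 and 63.6 CPM against 8.87 and 11.6 CPM. Rpl10l, a gene for a ribosomal protein, was detected in 25 of 29 and 25 of 28 Lgr5 cells and in 0 Lgr6 cells, while Slc20a2, a phosphate transporter gene, was detected in 0 Lgr5 cells and in 10 of 50 and 15 of 75 Lgr6 cells. The labels do not state the sex of the animals. Promoter, reporter, sort and whatever else differs between the lines cannot be told apart in this design. The comparison of Acta2-high with Acta2-lower cells is within the same animals and does not carry them.

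Levels across genes are compared per transcript length, as the mean of log2(TPM + 1) over cells. Mgp, which encodes an inhibitor of calcification in the matrix, had the highest level of the members in the Acta2-lower cells of both Lgr6 mice, at 12.65 and 12.89. Sparcl1, a secreted relative of osteonectin, led in the Acta2-high cells at 11.25 and 11.19, with Bgn, Ogn, Mgp and Sparc within 2 log2 units of it in both mice. In the Lgr5 mice the highest were Bgn (biglycan) at 10.17 in mouse 1 and Mgp at 9.91 in mouse 2. The smallest mean was that of Fbln2, which ran from 0.02 to 1.01 over the 6 groups of cells. A median of 18 to 20 members was detected per cell in the 6 groups. The heat map of all 39 members shows the groups side by side.

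**Figure D1:**
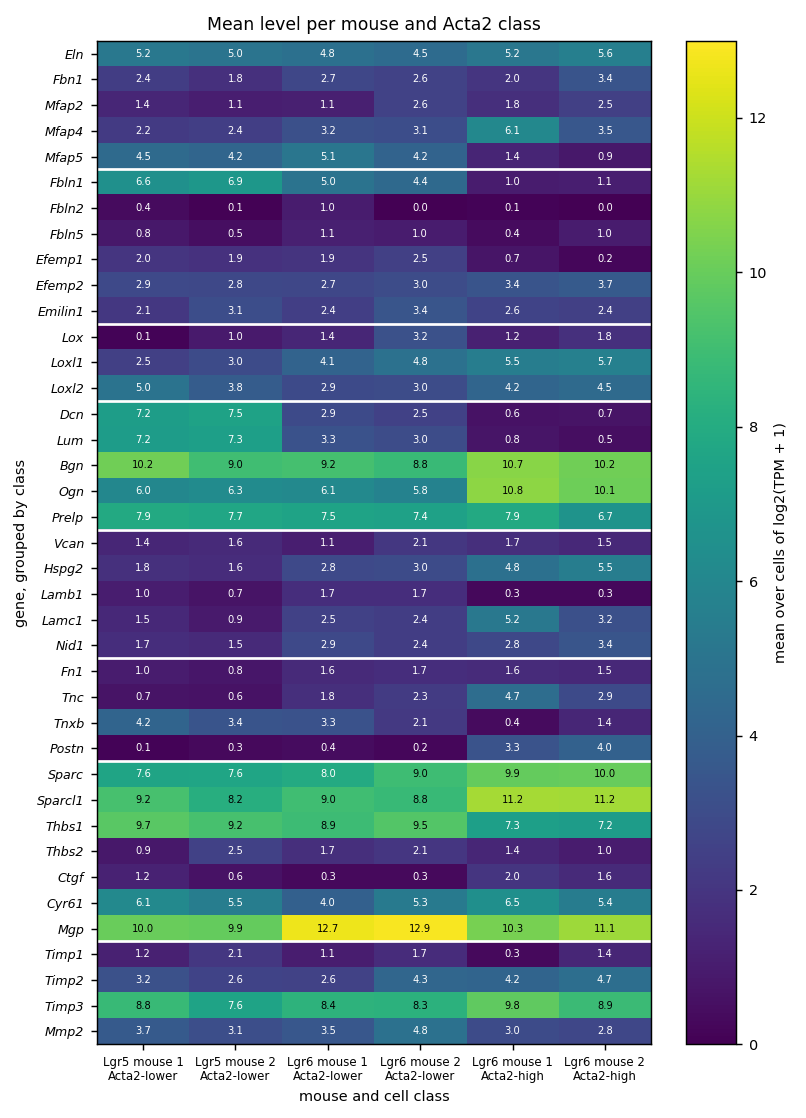
Mean log2(TPM + 1) over cells for each of the 39 members (vertical axis, grouped by class) in the Acta2-lower cells of each Lgr5 and Lgr6 mouse and the Acta2-high cells of each Lgr6 mouse (horizontal axis). Dcn, Lum and Fbln1 are bright in the Lgr5 mice and dark in Acta2-high cells, while Ogn, Hspg2 and Postn are brightest in Acta2-high cells.

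Each comparison was tested in 2 ways. The main test was the quasi-likelihood F test of edgeR, with p adjusted by Benjamini-Hochberg over all genes tested. It ran on counts summed per mouse or per mouse and class, so that deep cells weigh most. Its CPM are scaled by TMM factors within each comparison, so the same sum differs slightly between comparisons. The other, limma on the mean log2(TPM + 1) over cells, gives each cell the same weight. With 2 mice against 2 no exact permutation test of a single value can fall below a two-sided p of 0.333.

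By limma on per-cell means, Ogn and Postn were higher in Acta2-high than in Acta2-lower cells of the same Lgr6 mice. Fbln1 and Mfap5 were lower. The comparison asks which matrix genes go with smooth muscle actin within a line. In edgeR 8 of 14144 genes passed an adjusted p of 0.05 (0.0566%), 1 higher (Acta2) and 7 lower, and 0 of the 39 members, although 17 members were under 0.05 before adjustment (unadjusted p), as were 1006 of the 14144 genes. With DESeq2 14 members passed, 3 higher and 11 lower, among 1075 genes. In limma 4 of 38 members passed, against 1.38% of 7742 genes: Ogn and Postn rose and Fbln1 and Mfap5 fell. Those calls depend on the filter on low levels: with no filter limma called 0 of 19473 genes and 0 of the 39 members, with 2225 genes and 15 members at an unadjusted p under 0.05. By CPM, 8 members were higher in Acta2-high cells in both mice (26.3% of all genes tested were) and 19 were lower in both (26.6% of all genes), and 12 went opposite ways in the 2 mice.

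The excess of lower members in those sums rests largely on 1 cell. Scaled by library size alone, 18 members were lower and 8 higher in both mice with all cells. Without the deepest Acta2-lower cell of Lgr6 mouse 1, 14 were lower and 12 higher. Over all genes tested the shares without that cell were 24.7% lower and 27.2% higher. The members' median log2 fold change was −0.81 with it and −0.09 without it, 8 members changed sign, and 26 genes passed in place of 8, among them 1 member, Thbs1. At an unadjusted p under 0.05 were 13 members in place of 17, and 1019 genes in place of 1006. The per-cell means had a median difference of 0.16 over the members and 0.08 over all genes tested.

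By limma on per-cell means, Dcn, Lum, Fbln1, Mfap5 and Tnxb were higher in the Lgr5 mice than in the Lgr6 mice. Ogn, Postn, Loxl1, Hspg2, Lamc1, Tnc, Mfap4, Sparc and Mgp were lower. Between the lines 0 of 14086 genes passed in edgeR over all kept cells (0%), where 1312 genes and 19 members had an unadjusted p under 0.05, DESeq2 called 567 genes and 4 members, and limma called 934 of 7065 genes (13.2%) and 14 of 36 members. Without the deepest Acta2-lower cell of Lgr6 mouse 1 edgeR still called 0, with 1263 genes and 12 members at an unadjusted p under 0.05. The 14 members named above are limma calls under a filter on low levels, and with no filter limma called 0.790% of genes and 3 members, Dcn, Lum and Fbln1. In CPM 5 members were higher in both Lgr5 mice than in both Lgr6 mice (18.9% of all genes were) and 24 were lower (24% of all genes), with a median log2 fold change of −1.32 over the members and −0.05 over all genes. Most Acta2-high cells belong to the Lgr6 mice, so this comparison mixes line with class. It shares its samples with the comparison of Acta2-lower cells alone. There Mfap5 had the opposite sign without passing, with a log2 fold change of −0.56, and −0.93 to −0.05 over 17 alternatives.

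With Acta2-high cells set aside, Dcn, Lum and Fbln1 remained higher per cell in the Lgr5 mice and Mgp lower by limma, of which Dcn and Lum alone passed with no filter on low levels (2 members and 0.195% of genes). In this comparison 0 of 12958 genes passed in edgeR (0%), where 976 genes and 17 members had an unadjusted p under 0.05, DESeq2 called 389 genes and 4 members, and limma called 429 of 7082 genes (6.06%) and 4 of 36 members. Without the deepest cell of Lgr6 mouse 1 edgeR called 0 as well, and the members at an unadjusted p under 0.05 went from 17 to 4, while the genes went from 976 to 921. By CPM 2 members were higher in both Lgr5 mice (19% of all genes) and 24 were lower (18.7% of all genes), with a median log2 fold change of −1.16 over the members and 0 over all genes. Scaled by library size, the lower members numbered 22 with all cells (16.2% of all genes) and 14 without the deepest cell of Lgr6 mouse 1 (15.4% of all genes). The higher members numbered 4 in each case (21.8% and 20.9% of all genes). The members' median log2 fold change without that cell was −0.61. Library size in place of TMM moved the median of all genes from 0 to 0.18 log2 units here, and by less than 0.1 in the other comparisons.

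Sequence upstream of the genes is shown for 5 members that differed in opposite directions by Acta2 class: Ogn, Postn and Cyr61, whose CPM were higher in Acta2-high cells of both mice, and Fbln1 and Efemp1, whose CPM were lower. For Efemp1 the order in mouse 1 rests on its deepest cell and turned without it. The log2 fold change of Cyr61 turned, to −0.12, at an Acta2 limit of 12. The windows span 250 bases before to 50 bases after the annotated gene start, read 5′ to 3′ on the gene's strand from RefSeq on build GRCm38.p6. They lie at chr13:49607765-49608064 (plus strand), chr3:54360857-54361156 (plus), chr3:145649936-145650235 (minus, listed there under its later symbol Ccn1), chr15:85205699-85205998 (plus) and chr11:28852955-28853254 (plus). Postn and Fbln1 have 2 windows each, and the one at the annotated start is shown. Capitals mark matches to TATAAA (the TATA box), CATTCC (the core of the TEAD motif) and GGGCGG (the GC box) on either strand.
Ogn: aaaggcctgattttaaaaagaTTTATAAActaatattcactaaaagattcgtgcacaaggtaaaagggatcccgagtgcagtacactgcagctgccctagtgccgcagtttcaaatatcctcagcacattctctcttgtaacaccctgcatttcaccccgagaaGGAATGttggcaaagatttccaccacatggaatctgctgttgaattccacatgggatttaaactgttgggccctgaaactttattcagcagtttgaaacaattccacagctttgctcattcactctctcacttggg
Postn: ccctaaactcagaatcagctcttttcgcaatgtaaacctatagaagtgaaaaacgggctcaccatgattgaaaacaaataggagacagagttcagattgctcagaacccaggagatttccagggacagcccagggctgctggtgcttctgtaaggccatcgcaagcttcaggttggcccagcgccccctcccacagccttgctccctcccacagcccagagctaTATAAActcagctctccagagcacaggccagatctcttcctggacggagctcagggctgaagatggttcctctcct
Cyr61: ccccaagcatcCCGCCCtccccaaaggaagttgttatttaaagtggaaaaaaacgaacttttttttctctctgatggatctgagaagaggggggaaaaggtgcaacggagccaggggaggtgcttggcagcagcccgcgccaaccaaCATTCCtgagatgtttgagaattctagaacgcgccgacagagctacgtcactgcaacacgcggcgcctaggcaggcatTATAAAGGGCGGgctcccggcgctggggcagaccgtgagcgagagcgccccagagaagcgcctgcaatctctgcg
Fbln1: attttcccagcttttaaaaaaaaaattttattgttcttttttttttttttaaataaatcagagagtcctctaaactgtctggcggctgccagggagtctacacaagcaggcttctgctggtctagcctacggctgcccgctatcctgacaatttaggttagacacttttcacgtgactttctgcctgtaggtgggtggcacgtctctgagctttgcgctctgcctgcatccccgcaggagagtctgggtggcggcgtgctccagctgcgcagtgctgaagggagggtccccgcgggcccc
Efemp1: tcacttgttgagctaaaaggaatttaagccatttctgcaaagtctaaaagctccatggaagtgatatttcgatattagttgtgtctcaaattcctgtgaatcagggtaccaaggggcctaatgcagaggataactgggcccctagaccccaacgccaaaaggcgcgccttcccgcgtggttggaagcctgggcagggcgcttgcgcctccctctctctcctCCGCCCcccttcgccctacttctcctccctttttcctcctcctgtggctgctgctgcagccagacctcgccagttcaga

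A match is a description of letters, not a bound site, and the motifs and windows were chosen after the values were seen. TATAAA began 26 bases before the annotated start in Postn and 25 bases before it in Cyr61, where GGGCGG adjoins it directly. In Ogn a pair of TATAAA matches on opposite strands overlap within TTTATAAA, 229 and 227 bases upstream. CATTCC lay upstream of the TATAAA of Cyr61 and, on the minus strand, 86 bases upstream of Ogn, and GGGCGG lay on the minus strand 239 bases upstream of Cyr61 and 29 bases upstream of Efemp1. The window of Fbln1 shown held no match, while its other window held GGGCGG.

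Of the 39 members 24 have windows in the table, 31 in all, out of 32851 windows of every gene. Both strands were searched. TATAAA was in 6 of the 31 (5 members: Ogn, Tnc, Postn, Thbs2 and Cyr61) and in 13.6% of all windows. CATTCC was in 5 of 31 (Mfap2, Ogn, Nid1, Cyr61 and Timp1) and in 14.7% of all windows. GGGCGG was in 20 of 31, from 17 members, and in 35.7% of all. TGAGTCA (AP-1) was in 1, that of Tnxb, and in 5.20% of all, and the CArG box of serum response factor was in 0 of 31 and in 1.63% of all. The members without a window are Eln, Mfap4, Mfap5, Lox, Loxl1, Loxl2, Dcn, Lum, Lamc1, Fn1, Sparcl1, Thbs1, Ctgf, Mgp and Mmp2.

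Among the elastic fibre core genes Eln, which encodes tropoelastin, had mean log2(TPM + 1) of 5.23 and 4.99 in the Acta2-lower cells of the Lgr5 mice, 4.80 and 4.52 in those of the Lgr6 mice and 5.16 and 5.60 in Acta2-high cells. Both Acta2-high means were above both Acta2-lower means of the Lgr6 mice, with an overlap with the Lgr5 mice, and the class difference of 0.72, SE 0.39, did not pass in limma. Among Acta2-lower Lgr6 cells the mean was 1.93 in the 12 with epithelial markers, as defined below, and 5.30 in the 48 without. The latter lies between the Acta2-high means, and the part of marker cells in the per-cell difference was not tested. In sums Eln was 802 and 271 CPM in the Acta2-lower and 249 and 249.6 CPM in the Acta2-high cells of the Lgr6 mice, but 78% of its reads in the first of these sums came from the deepest cell. Without it the log2 fold change between classes went from −0.90 to −0.02.

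Fbn1, the fibrillin that forms the microfibril backbone, stood at 76.5 and 71.7 CPM in the Acta2-lower cells of the Lgr5 mice and 707 and 220.3 CPM in those of the Lgr6 mice (edgeR quasi-likelihood test, log2 fold change −2.65, SE 0.71, adjusted p = 0.328). Both Lgr6 values were above both Lgr5 values, and 92% of the reads in Lgr6 mouse 1 came from its deepest cell, without which the log2 fold change was −1.0 and the lines overlapped. Mfap4 and Mfap5 encode microfibril-associated glycoproteins and went opposite ways by class in the per-cell means. Mfap5 stood at 5.13 and 4.16 mean log2(TPM + 1) in Acta2-lower and 1.36 and 0.86 in Acta2-high cells. The difference of −3.54, SE 0.37, passed in limma, though not with no filter on low levels. Mfap4 was 3.17 and 3.09 in Acta2-lower and 6.09 and 3.54 in Acta2-high cells, a difference of 1.69, SE 0.65, that did not pass. In the sums Mfap4 had the opposite sign, at 382 and 638 CPM in Acta2-lower and 189.5 and 158.1 CPM in Acta2-high cells, a log2 fold change of −1.51 and, without the deepest cell, −1.11.

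Of the 5 genes of this class, 3 had lower CPM in both Lgr5 mice than in both Lgr6 mice among Acta2-lower cells (18.7% of all genes tested were) and 0 had higher, and the 3 became 2 without the deepest cell. Between the classes of Lgr6 cells 4 were lower in Acta2-high cells of both mice (26.6% of all genes tested were), with 4 lower and 1 higher without that cell. Mfap2 was among them at 26.9 and 42.2 against 77 and 48.3 CPM, with a log2 fold change of −0.85 that became −0.08 without that cell.

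Among the fibulins, proteins that link elastin to microfibrils and to cells, Fbln1 separated the 3 kinds of cells. Its mean log2(TPM + 1) was 6.55 and 6.86 in the Lgr5 mice, 4.97 and 4.44 in Acta2-lower and 0.98 and 1.12 in Acta2-high Lgr6 cells, with no overlap between any pair of these groups. Both steps passed in limma, though neither with no filter on low levels: Fbln1 fell by 3.66 log2 units (SE 0.38) in Acta2-high cells, and was higher in the Lgr5 mice by 2.0, SE 0.45, among Acta2-lower cells. In sums it was 827 and 271 CPM in Acta2-lower and 57 and 80.4 CPM in Acta2-high cells (edgeR quasi-likelihood test, log2 fold change −2.81, SE 0.68, adjusted p = 0.635, and −2.14 without the deepest cell). Between the lines its Acta2-lower sums overlapped, at 397 and 468 CPM in the Lgr5 mice, against 869.9 and 264 CPM in the 2 Lgr6 mice, and the log2 fold change of −0.39 became 0.45 without that cell. Over all kept cells they did not overlap, at 373 and 493 against 347 and 171.6 CPM, with a log2 fold change of 0.74, and 1.45 without it. With every cell thinned to 99000 reads, Fbln1 was detected in 8 of 16 cells (50%, 24.7% to 75.3%) and 20 of 36 cells (55.6%, 38.1% to 72.1%) of the Acta2-lower class of the Lgr6 mice, where the ranges are 95% exact Clopper-Pearson intervals. In Acta2-high cells the share was 2 of 21 cells (9.52%, 1.17% to 30.4%) and 5 of 37 cells (13.5%, 4.54% to 28.8%). Such intervals and every floor below cover counting error only, since reads without molecular identifiers are not independent molecules.

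Efemp1, which encodes fibulin-3, stood at 802 and 179.5 CPM in Acta2-lower and 44.1 and 2.90 CPM in Acta2-high cells of the Lgr6 mice (edgeR quasi-likelihood test, log2 fold change −5.06, SE 0.76, adjusted p = 0.222). Of its Acta2-lower reads in mouse 1, 98.7% came from the deepest cell. Without it the log2 fold change was −2.15, and mouse 1 turned, at 15.2 CPM by library size in Acta2-lower and 44.7 in Acta2-high cells. The same cell carries most of its line difference: 76.6 and 42.7 CPM in the Lgr5 and 844 and 174.4 CPM in the Lgr6 mice (edgeR quasi-likelihood test, log2 fold change −3.09, SE 0.83, adjusted p = 0.328) became a log2 fold change of −0.64, with an overlap between the lines. Fbln2 shows the effect in full, with 985 CPM in the Acta2-lower sum of Lgr6 mouse 1, 99.5% of it from that cell, and 0.101 CPM in mouse 2. Fbln5, Efemp2 (fibulin-4) and Emilin1 passed no test in any comparison, with mean log2(TPM + 1) of 0.37 to 3.69 over the 6 groups. The plot of single cells shows how far a few cells set such sums.

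**Figure D2:**
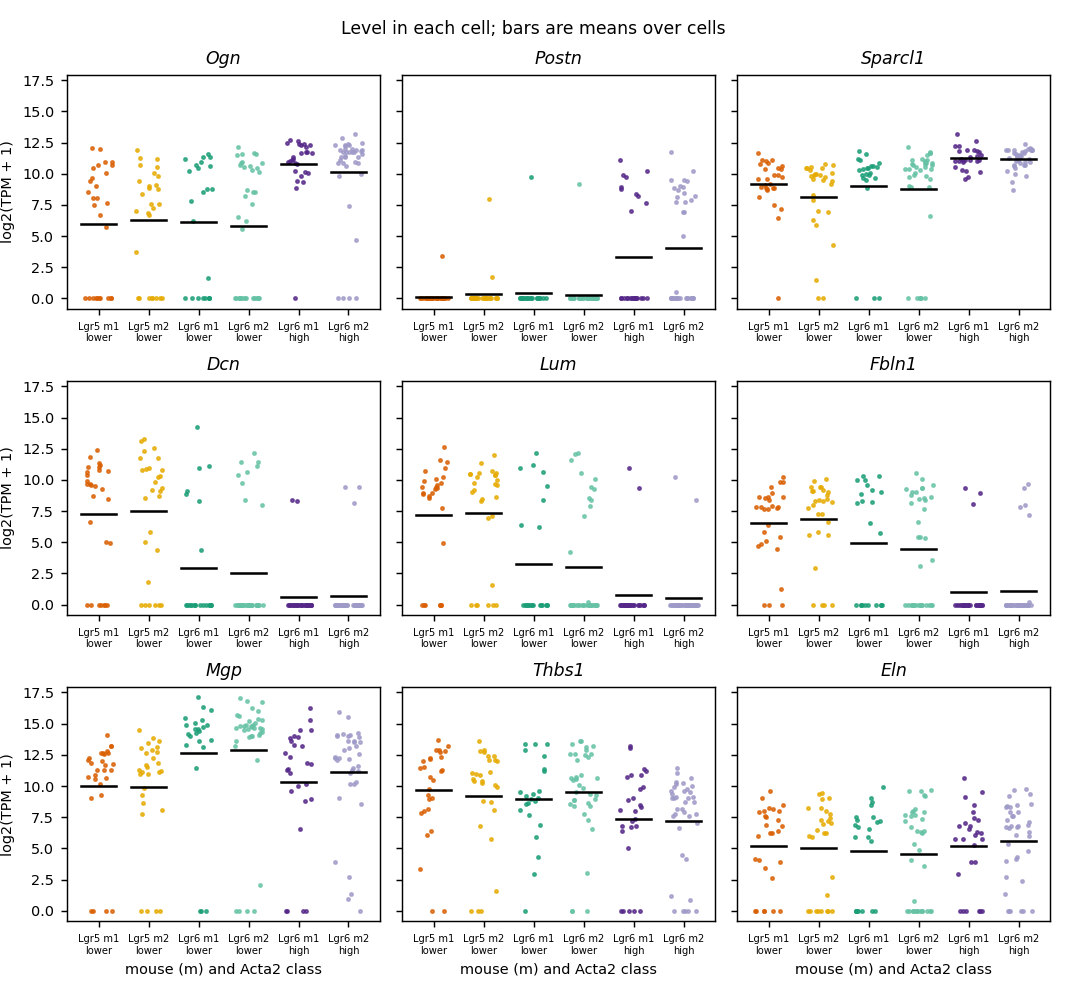
log2(TPM + 1) of 9 members (vertical axis) in each kept cell (1 point per cell), by mouse and Acta2 class (horizontal axis), where bars are the means over cells. Dcn, Lum and Fbln1 are off in most Acta2-high cells, Ogn is on in nearly all of them, and Postn is on in a part of them.

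Lysyl oxidases oxidise lysines of elastin and collagen so that the chains crosslink. Among Acta2-lower cells, Lox stood at 0.510 and 19.4 CPM in the Lgr5 mice, against 129.01 and 198 CPM in the 2 Lgr6 mice (edgeR quasi-likelihood test, log2 fold change −4.03, SE 1.41, adjusted p = 0.427, and −3.35 without the deepest cell). Over all cells it was 0.478 and 20.5 against 60.2 and 114.2 CPM (edgeR quasi-likelihood test, log2 fold change −3.05, SE 1.5, adjusted p = 0.623, and −2.67 without it). The value of Lgr5 mouse 1 is 5 reads, all from 1 cell, and 93.1% of the Acta2-lower reads of Lgr6 mouse 1 came from its deepest cell. Without that cell the lines overlapped, since Lgr6 mouse 1 had 12.4 CPM by library size among Acta2-lower cells and 19.6 over all, below the 20.4 of Lgr5 mouse 2.

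Loxl1 is the family member most tied to elastin. Its mean log2(TPM + 1) was 2.46 and 2.96 in the Lgr5 mice, 4.13 and 4.84 in Acta2-lower and 5.52 and 5.67 in Acta2-high Lgr6 cells, an order without overlap. Among Acta2-lower Lgr6 cells it was 2.30 in the 12 with epithelial markers and 5.14 in the 48 without. Over all cells the line difference of −2.28, SE 0.39, passed in limma, while that among Acta2-lower cells (−1.77, SE 0.47) did not. Loxl2 went the other way between the lines, at 223 and 123.6 CPM in the Lgr5 and 56.1 and 101.04 CPM in the Lgr6 mice among Acta2-lower cells, and was 161.1 and 279.8 CPM in Acta2-high cells. It passed no test in edgeR, limma or DESeq2.

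Small leucine-rich proteoglycans gave the largest per-cell differences. Dcn (decorin), which coats collagen fibrils, had a mean log2(TPM + 1) of 7.25 and 7.51 in the Lgr5 mice, 2.91 and 2.52 in Acta2-lower and 0.62 and 0.71 in Acta2-high Lgr6 cells. Among Acta2-lower cells it was higher in the Lgr5 mice by 4.66, SE 0.44, which passed in limma. Detection in thinned cells followed the same order: 20 of 27 cells (74.1%, 53.7% to 88.9%) and 19 of 25 cells (76%, 54.9% to 90.6%) in the Lgr5 mice, against 5 of 16 cells (31.2%, 11% to 58.7%) and 9 of 36 cells (25%, 12.1% to 42.2%) in Acta2-lower Lgr6 cells. In Acta2-high cells it was found in 1 of 21 cells (4.76%, 0.120% to 23.8%) and 3 of 37 cells (8.11%, 1.70% to 21.9%).

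The sums of Dcn gave another picture, since 7 of the 23 Acta2-lower cells of Lgr6 mouse 1 and 9 of the 37 of mouse 2 held all of its reads there. Among Acta2-lower cells they were 659 and 999 CPM in the Lgr5 and 1343 and 300.3 CPM in the Lgr6 mice, with a log2 fold change of 0.01 and, without the deepest cell, −0.34. In Lgr6 mouse 1 another cell gave 87.2% of the Acta2-lower reads of Dcn, and the deepest cell 8.11%. Between the classes of Lgr6 cells they went from 1277 and 309 CPM in Acta2-lower to 5.98 and 60.5 CPM in Acta2-high cells (edgeR quasi-likelihood test, log2 fold change −5.03, SE 1.61, adjusted p = 0.694, and −5.18 without the deepest cell). Both mice had less Dcn in Acta2-high cells.

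Lum (lumican), the neighbour of Dcn on chromosome 10 at a distance of 46984 bases, behaved much alike in single cells, with 7.18 and 7.34 mean log2(TPM + 1) in the Lgr5 mice, 3.28 and 3.02 in Acta2-lower and 0.75 and 0.49 in Acta2-high Lgr6 cells. The line difference among Acta2-lower cells, 4.11, SE 0.43, passed in limma, while by class Lum passed there only at a pseudocount of 0.1. By class its sums went opposite ways in the 2 Lgr6 mice, from 170.6 and 332 CPM in Acta2-lower to 192.4 and 47.5 CPM in Acta2-high cells. Without the deepest cell mouse 1 turned, at 250 CPM by library size in Acta2-lower and 195 in Acta2-high cells, so that both mice were lower. Its sums kept the lines apart, at 844 and 938 CPM over all cells of the Lgr5 and 187.1 and 183.5 CPM over those of the Lgr6 mice (edgeR quasi-likelihood test, log2 fold change 2.27, SE 0.38, adjusted p = 0.327, and 2.17 without the deepest cell). Across all kept cells, after each mouse's mean was removed, Dcn and Lum had a Pearson r of 0.346, a description of points that share 4 libraries and their depth.

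**Figure D3:**
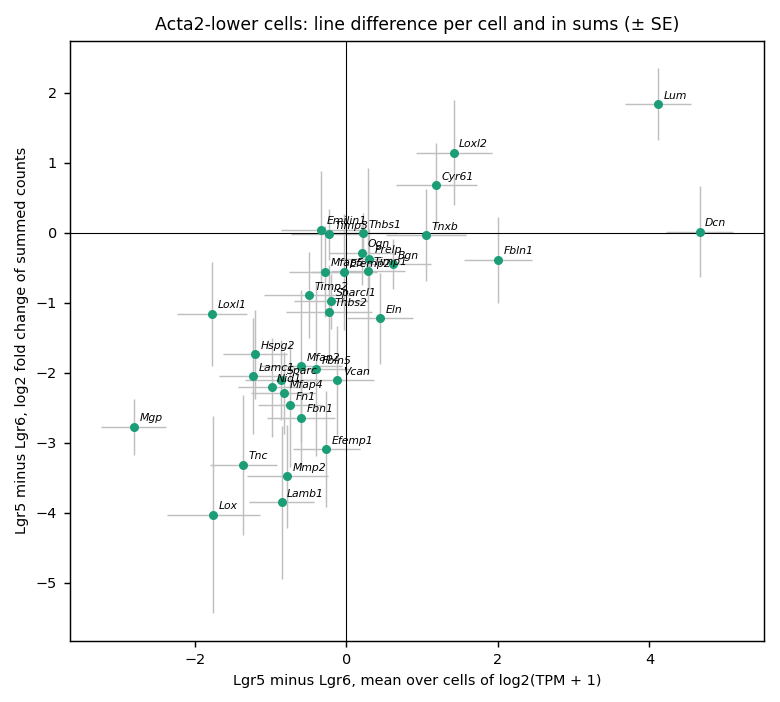
Line difference of each member among Acta2-lower cells, Lgr5 minus Lgr6, from per-cell means (horizontal axis, limma difference of mean log2(TPM + 1), ± SE) and from sums (vertical axis, edgeR log2 fold change, ± SE). Dcn lies at 4.66 by cells and 0.01 by sums, Lum is positive by both, and Mgp is negative by both.

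Ogn (osteoglycin, or mimecan) ran opposite to Dcn by class. It stood at 629.7 and 981 CPM in Acta2-lower and 3343 and 3572 CPM in Acta2-high cells of the Lgr6 mice (edgeR quasi-likelihood test, log2 fold change 2.14, SE 0.30, adjusted p = 0.171, and 2.06 without the deepest cell, higher in 2 of 2 mice). In per-cell means it rose from 6.10 and 5.77 to 10.79 and 10.12 log2(TPM + 1), a difference of 4.52, SE 0.36, that passed in limma. It did not pass with no filter on low levels. Thinned Acta2-high cells had an Ogn read in 20 of 21 cells (95.2%, 76.2% to 99.9%) and 33 of 37 cells (89.2%, 74.6% to 97%), and Acta2-lower cells in 9 of 16 cells (56.2%, 29.9% to 80.2%) and 21 of 36 cells (58.3%, 40.8% to 74.5%). Acta2-lower cells of the Lgr5 mice were at the level of Acta2-lower Lgr6 cells, with means of 6.0 and 6.27. Ogn lies on chromosome 13 in a run of related genes, 15223 bases from Omd, which is 14896 bases from Aspn.

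Bgn and Prelp were high in every group. Bgn ran from 8.81 to 10.70 mean log2(TPM + 1) over the 6 groups and Prelp, an anchor between basement membrane and collagen, from 6.66 to 7.89. Neither passed a test in any comparison in edgeR, limma or DESeq2. Bgn differed in sign between units by class: it was 2573 and 2191 CPM in Acta2-lower and 1793 and 1634 CPM in Acta2-high sums (a log2 fold change of −0.47, and −0.09 without the deepest cell), and higher by 1.45, SE 0.36, in Acta2-high cells by per-cell means. Among Acta2-lower Lgr6 cells its mean was 3.97 in the 12 with epithelial markers and 10.19 in the 48 without. The part of marker cells in the per-cell difference was not tested.

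**Figure D4:**
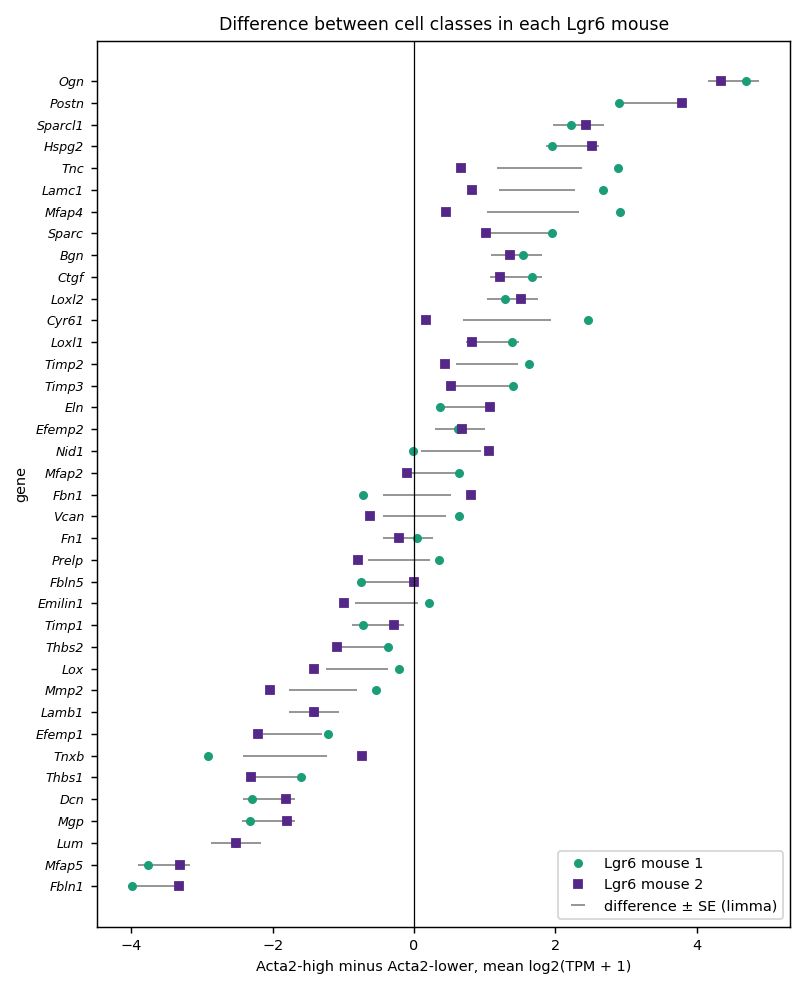
Difference in mean log2(TPM + 1) between Acta2-high and Acta2-lower cells (horizontal axis) for each member (vertical axis), in Lgr6 mouse 1 (circles) and mouse 2 (squares), with the limma difference ± SE in grey. Ogn (4.52) stands at the top and Fbln1 (−3.66) at the bottom, with both mice on the same side of 0 for each.

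Of the 5 large proteoglycan and basement membrane genes, 0 passed by class in edgeR (1 at an unadjusted p under 0.05) or limma, and 1, Lamb1, passed in DESeq2. Hspg2 encodes perlecan, a heparan sulphate proteoglycan of muscle and vessel basement membranes, and had a mean log2(TPM + 1) of 4.80 and 5.52 in Acta2-high, 2.84 and 2.99 in Acta2-lower Lgr6 cells and 1.78 and 1.64 in the Lgr5 mice. Thinned Acta2-high cells had a read of it in 17 of 21 cells (81%, 58.1% to 94.6%) and 35 of 37 cells (94.6%, 81.8% to 99.3%). Its difference by class, 2.24, SE 0.37, did not pass in limma, and its sums overlapped, with a log2 fold change of 0.05, and 0.80 without the deepest cell. Lamc1, the shared gamma chain of most laminins, was 5.19 and 3.20 in Acta2-high, 2.52 and 2.37 in Acta2-lower Lgr6 cells and 1.5 and 0.93 in the Lgr5 mice. Over all cells both genes fell by limma in the Lgr5 mice relative to the Lgr6 mice, Hspg2 by 2.29 and Lamc1 by 2.11 log2 units.

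Lamb1, a laminin beta chain, had the opposite order by class, at 1004 and 237 CPM in Acta2-lower and 53.7 and 24.6 CPM in Acta2-high cells (edgeR quasi-likelihood test, log2 fold change −3.75, SE 0.58, adjusted p = 0.227). Of the Acta2-lower reads of mouse 1, 96.9% came from its deepest cell. Without it the log2 fold change was −1.46, and mouse 1 went the other way, at 45.6 CPM by library size in Acta2-lower and 54.4 in Acta2-high cells. Among Acta2-lower cells it was 80.5 and 8.46 CPM in the Lgr5 and 1056 and 231 CPM in the Lgr6 mice (edgeR quasi-likelihood test, log2 fold change −3.85, SE 1.10, adjusted p = 0.328, and −1.62 without that cell). Over all cells the values were 75.5 and 8.92 against 411 and 126.4 CPM (edgeR quasi-likelihood test, log2 fold change −2.67, SE 1.07, adjusted p = 0.505, and −1.08 without it). In both the lines overlapped once that cell was left out. Vcan (versican) and Nid1 (nidogen) complete the class: all 5 of its genes were lower in both Lgr5 mice than in both Lgr6 mice among Acta2-lower cells (18.7% of all genes tested were). Without the deepest cell 2 of the 5 were, and Vcan was at −0.17 and Nid1 at −0.98 log2 fold change.

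Postn (periostin), a matricellular protein of tissue under load and repair, marked a part of the Acta2-high cells. It stood at 6.67 and 26.3 CPM in Acta2-lower and 410.0 and 376 CPM in Acta2-high cells of the Lgr6 mice (edgeR quasi-likelihood test, log2 fold change 4.88, SE 0.87, adjusted p = 0.341, and 4.67 without the deepest cell). The Acta2-lower values are 70 and 1523 reads, all from 1 cell in each mouse. In per-cell means Postn rose by 3.35, SE 0.40, which passed in limma, though not with no filter on low levels. That filter asks for a mean of at least 1 in a group. Postn met it through its Acta2-high cells alone, since its Acta2-lower means in the Lgr6 line were 0.39 without and 0 with epithelial markers. Thinned Acta2-high cells had a Postn read in 7 of 21 cells (33.3%, 14.6% to 57%) and 17 of 37 cells (45.9%, 29.5% to 63.1%), thinned Acta2-lower cells in 0 of 16 cells (0%, 0% to 20.6%) and 1 of 36 cells (2.78%, 0.0703% to 14.5%). Over all cells it was 0.478 and 6.71 CPM in the Lgr5 and 265 and 208 CPM in the Lgr6 mice (edgeR quasi-likelihood test, log2 fold change −6.03, SE 1.24, adjusted p = 0.327, and −6.14 without the deepest cell), a line difference that holds the class difference within it. Among Acta2-lower cells it was 0.510 and 6.36 against 7.01 and 25.6 CPM (edgeR quasi-likelihood test, log2 fold change −2.24, SE 1.94, adjusted p = 0.941, and −2.34 without the deepest cell). That order turned at an Acta2 limit of 10. Postn was then 0.603 and 8.74 CPM in Acta2-lower cells of the Lgr5 mice and 0 in those of both Lgr6 mice.

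**Figure D5:**
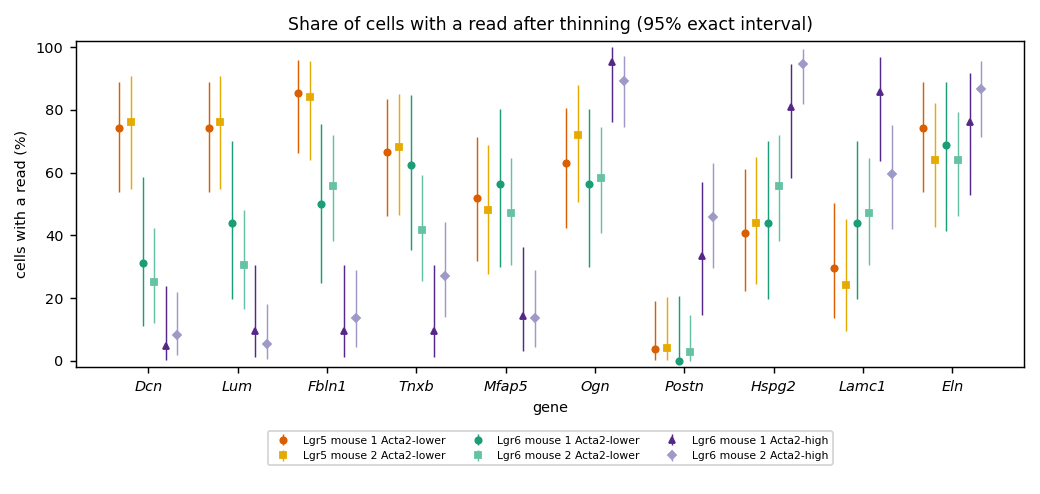
Share of cells with at least 1 read (vertical axis, percent, with 95% exact intervals) for 10 members after every cell was thinned to 99000 reads, by mouse and Acta2 class. Postn reaches 33.3% and 45.9% in Acta2-high cells and 4% or less in the other groups.

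Tenascins are large glycoproteins that loosen contact between cells and matrix. Tnc was 8.37 and 31.7 CPM in the Acta2-lower cells of the Lgr5 and 305 and 93.3 CPM in those of the Lgr6 mice (edgeR quasi-likelihood test, log2 fold change −3.31, SE 1.0, adjusted p = 0.329, and −3.74 without the deepest cell). Over all cells it was 55.8 and 33.4 against 478 and 163.7 CPM (edgeR quasi-likelihood test, log2 fold change −2.85, SE 0.69, adjusted p = 0.327, and −2.99 without it). The deepest cell held 0 of the Tnc reads, and another cell gave 78.4% of the Acta2-lower sum of Lgr6 mouse 1, which was not left out in any alternative of its own. Both Lgr6 mice were above both Lgr5 mice in each, and Acta2-high cells had the highest means, 4.66 and 2.94 log2(TPM + 1).

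Tnxb, the tenascin of loose connective tissue, went the other way, at 315 and 141.5 CPM in Acta2-lower and 10.1 and 57.3 CPM in Acta2-high cells (edgeR quasi-likelihood test, log2 fold change −3.13, SE 1.14, adjusted p = 0.694, and −3.05 without the deepest cell). Its partial copy Tnxa is counted separately in the same table, and how reads were divided between the pair is not known here. Fn1 (fibronectin) was 44.5 and 24.2 CPM in the Lgr5 and 84.6 and 295 CPM in the Lgr6 mice among Acta2-lower cells (edgeR quasi-likelihood test, log2 fold change −2.46, SE 0.89, adjusted p = 0.462, and −2.23 without that cell). Over all cells it was 41.7 and 25.5 against 124.8 and 188.6 CPM (edgeR quasi-likelihood test, log2 fold change −2.22, SE 0.61, adjusted p = 0.327, and −2.19 without it). The deepest cell gave 70.2% of the Acta2-lower reads of Lgr6 mouse 1. Without it that sum was 35.2 CPM by library size, below the 47.9 of Lgr5 mouse 1, while over all cells both Lgr6 mice stayed above both Lgr5 mice. Fn1 had a mean under 2 log2(TPM + 1) in every group.

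Among matricellular genes, Mgp had the lowest adjusted p of all members in the edgeR test between the lines in Acta2-lower cells, though not in limma or DESeq2. It stood at 603 and 1120.2 CPM in the Acta2-lower cells of the Lgr5 and 6062 and 5713 CPM in those of the Lgr6 mice (edgeR quasi-likelihood test, log2 fold change −2.77, SE 0.40, adjusted p = 0.124, and −2.49 without the deepest cell). The per-cell difference of −2.81, SE 0.43, passed in limma, but not with no filter on low levels. Within the Lgr6 mice it was 5766 and 5880.2 CPM in Acta2-lower and 2014 and 1537 CPM in Acta2-high cells, a log2 fold change of −1.73, and −1.39 without the deepest cell. Acta2-lower Lgr6 cells stood above both other kinds of cell in each mouse.

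Thbs1, which encodes thrombospondin 1, an activator of latent TGF-beta, had the lowest adjusted p of the members by class in the edgeR test, though not in limma or DESeq2. It was 7727 and 6188 CPM in Acta2-lower and 2897 and 1537 CPM in Acta2-high cells (edgeR quasi-likelihood test, log2 fold change −1.71, SE 0.23, adjusted p = 0.151). It was lower in Acta2-high cells of both mice, and without the deepest cell it passed in edgeR, with a log2 fold change of −1.91 (SE 0.17) and an adjusted p of 0.023, where the alternatives of this comparison ran from 0.022 to 1. That cell gave 1.59% of the Acta2-lower reads of Thbs1 in mouse 1 and another cell 41.2%, and a single cell gave 64.4% of the Acta2-high reads. Thbs2 had mean log2(TPM + 1) of 0.86 to 2.5 over the 6 groups and passed no test.

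Ctgf and Cyr61 are CCN family genes induced by mechanical signals through YAP and TEAD. Ctgf was 0.857 and 2.61 CPM in Acta2-lower and 28.4 and 80 CPM in Acta2-high cells (edgeR quasi-likelihood test, log2 fold change 4.99, SE 1.51, adjusted p = 0.694, and 4.79 without the deepest cell). In mouse 1 a single cell gave all of the Acta2-lower reads, and in mouse 2 the top cell gave 84.1% of them. Over all cells it was 10.9 and 1.91 CPM in the Lgr5 and 18.5 and 42.8 CPM in the Lgr6 mice (edgeR quasi-likelihood test, log2 fold change −2.26, SE 1.30, adjusted p = 0.685, and −2.32 without that cell). Among Acta2-lower cells the sign was the opposite and the lines overlapped, at 11.6 and 1.81 against 0.901 and 2.54 CPM (edgeR quasi-likelihood test, log2 fold change 1.95, SE 1.99, adjusted p = 0.951, and 1.81 without it). Cyr61, whose window holds both TATAAA and CATTCC, was 186.1 and 617 against 1083 and 883 CPM and was higher in Acta2-high cells of both mice without passing, with a log2 fold change of 1.53, and 1.32 without the deepest cell. Sparc and Sparcl1, calcium-binding glycoproteins, had per-cell means of 9.92 and 9.99 and of 11.25 and 11.19 log2(TPM + 1) in Acta2-high cells, above all Acta2-lower groups. Neither passed in limma by class. The sums of Sparc went opposite ways in the 2 mice, lower in Acta2-high cells in mouse 1 only, with a log2 fold change of −0.63 by class, but 83.7% of its Acta2-lower reads in mouse 1 came from the deepest cell, without which it was 0.47.

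Mmp2, gelatinase A, had an Acta2-lower sum that rested largely on 1 cell. It was 2956 and 591 CPM in Acta2-lower and 140.8 and 147.1 CPM in Acta2-high cells (edgeR quasi-likelihood test, log2 fold change −3.20, SE 0.70, adjusted p = 0.524), and 98.1% of its Acta2-lower reads in mouse 1 came from the deepest cell. Without it the log2 fold change was −0.54 and mouse 1 turned, at 80.8 CPM by library size in Acta2-lower and 142.8 in Acta2-high cells. Between the lines it was 166.5 and 163.3 against 3109 and 574 CPM among Acta2-lower cells (edgeR quasi-likelihood test, log2 fold change −3.48, SE 0.73, adjusted p = 0.328, and −0.96 without it) and 155.97 and 172.2 against 1199.8 and 359 CPM over all cells (edgeR quasi-likelihood test, log2 fold change −2.25, SE 0.62, adjusted p = 0.327, and −0.56 without it), and in both the lines overlapped without that cell. With all cells its inhibitors differed less by class in sums. Timp3, bound to the matrix, was 1613 and 1695 CPM in Acta2-lower and 1679 and 1232 CPM in Acta2-high cells (a log2 fold change of −0.20, and −0.29 without the deepest cell). Timp2 had a log2 fold change of 0.25, and 0.58 without that cell, where Mmp2 was at −0.54. Timp1 and Timp2 passed no test in edgeR, limma or DESeq2.

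Members also varied together from cell to cell. Over all kept cells, after each mouse's mean was removed, the closest pair was Bgn with Sparcl1 (Pearson r 0.713), with 0.762 over the Acta2-lower and −0.104 over the 66 Acta2-high cells. Sparcl1 and Mgp reached 0.781 in Acta2-lower cells and −0.120 in Acta2-high cells. Acta2-lower Lgr6 cells with epithelial markers were low in all 3 genes, with mean log2(TPM + 1) of 3.97 for Bgn, 3.5 for Sparcl1 and 5.16 for Mgp, against 10.19, 10.20 and 14.71 in the rest. Over the 77 Acta2-lower cells of both lines without such markers, an alternative chosen after seeing the data, r was 0.0564 for Bgn with Sparcl1 and −0.0273 for Sparcl1 with Mgp. Lamb1 and Fn1 had an r of 0.643 over all Acta2-lower cells and 0.612 over those 77, and Efemp1 and Lamb1 an r of 0.502 over all and 0.697 over those 77. With Acta2 itself the highest r among members was that of Sparcl1 (0.451) and the lowest that of Efemp1 (−0.294). These are descriptions of cells that share mice and depth. The 5 genes out of 19494 most like Eln were Col3a1 (0.392), Ppap2b (0.387), Pam (0.378), Bgn (0.372) and Sod3 (0.369).

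Other matrix genes, a list of 83 with 82 in the table, gave 0 calls in edgeR in each comparison. By class 65 were tested in edgeR, with 15 at an unadjusted p under 0.05, 12 higher and 29 lower in both mice (26.3% and 26.6% of all genes tested were). There limma called 1 of 42 (1.38% of all genes it tested) and DESeq2 14 (3 higher, 11 lower). Between lines over all cells edgeR tested 64, with 8 at an unadjusted p under 0.05, 6 higher and 26 lower in the Lgr5 mice (18.9% and 24% of all genes). Limma called 6 of 38 (13.2% of all genes) and DESeq2 4. Among Acta2-lower cells edgeR tested 62, with 9 at an unadjusted p under 0.05, 6 higher and 24 lower (19% and 18.7% of all genes). Limma called 2 of 40 (6.06% of all genes) and DESeq2 4. Scaled by library size, the lower genes went from 29 to 28, from 23 to 20 and from 19 to 17 in the same order when the deepest cell was left out, and the higher ones from 12 to 13, 9 to 8 and 6 to 7. The 5 with the largest change in each comparison whose groups did not overlap are given next.

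By class these were Sdc1, Matn4, Lamb3, Lama3 and Loxl4. Sdc1 (syndecan 1, a cell surface proteoglycan of epithelium) was 16.4 and 153.3 CPM in Acta2-lower cells and 0 in both Acta2-high sums, at least 3399.5-fold lower against a floor of 3 reads over the Acta2-high cells, with 90.2-fold in mouse 1 alone and 3093-fold in mouse 2 alone. Matn4 (matrilin 4) was 25 and 10 CPM (at least 317-fold, and 137.3-fold and 202-fold by mouse). Lamb3 was 2.48 and 12.6 CPM (at least 284-fold, by mouse 13.6-fold and 255-fold) and Lama3 5.62 and 5.95 CPM (at least 151.6-fold, by mouse 30.9-fold and 120.04-fold), and both are chains of laminin 332, made by epithelium. Loxl4, a lysyl oxidase, was 0.0953 and 0.0173 CPM in Acta2-lower, 2 reads in all, and 9.11 and 6.82 CPM in Acta2-high cells, a ratio of 262 with a 95% counting interval of 72.2 to 2167. Those Acta2-high reads came from 2 cells in mouse 1 and 1 cell in mouse 2. Each of the other 4 was detected in 3 to 6 Acta2-lower cells of a mouse. With 0 reads in Acta2-high cells, these 4 passed the count filter through Acta2-lower cells alone. Their folds describe those few cells and scale with their depth.

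Between the lines among Acta2-lower cells, Lamc3 (a laminin gamma chain) was 0 in both Lgr5 mice, against 116.6 and 11.6 CPM in the Lgr6 mice, at least 191.1-fold lower against 3 reads over the Lgr5 cells (771-fold with Lgr6 mouse 1 alone and 84.2-fold with mouse 2), and its reads lay in 3 and 2 cells of the Lgr6 mice, with 99.3% and 99.7% from 1 cell in each. Mmp3 (stromelysin) was 0.102 and 0 CPM, 1 read in all, against 35.7 and 43.7 CPM, a ratio of 915 (95% counting interval 164.02 to 36137) that rests on 1 and 2 cells of the Lgr6 mice. Lama3 was 1 read against 5.91 and 5.78 CPM, a ratio of 124.6 (22.2 to 4934), and Loxl4 was 12 and 9.40 CPM against 2 reads, a ratio of 401 (109.9 to 3330.0). The reads of Lama3 lay in 3 cells of each Lgr6 mouse (79.7% and 68.6% in the top cell), and those of Loxl4 in 4 and 2 cells of the Lgr5 mice (90.7% and 90.8%). With 0 reads in the Lgr5 mice, Lamc3 passed the count filter through the Lgr6 mice alone. Timp4, an inhibitor of metalloproteinases, was 0.306 and 0.145 against 7.71 and 23.5 CPM (edgeR quasi-likelihood test, log2 fold change −6.10, SE 2.24, adjusted p = 0.484).

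Over all cells the same comparison gave Lamc3 (0 in both Lgr5 mice against 41.6 and 6.13 CPM, at least 95.4-fold lower, 310.0-fold and 45.7-fold by Lgr6 mouse), Mmp3 (1 read against 12.7 and 24.1 CPM, a ratio of 491, counting interval 88 to 19393) and Timp4 (0.287 and 0.152 against 2.75 and 14 CPM). Fbn2 was 10.9 and 0.534 CPM in the Lgr5 and 0.286 and 0.116 CPM in the Lgr6 mice, and Smoc1 1.15 and 0 against 5.58 and 12.9 CPM. Their edgeR quasi-likelihood adjusted p were 0.452 for Timp4, 0.574 for Fbn2 and 0.674 for Smoc1, with log2 fold changes of −5.24 (SE 1.94), 4.83 (SE 2.17) and −4.02 (SE 2.24).

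Markers of other cell types moved with the Acta2 classes. Of the 8 airway smooth muscle markers Acta2 sets the classes and is left out here, a choice made after seeing the data. The other 7 were higher in Acta2-high cells of both Lgr6 mice (26.3% of all genes tested were, and 26.6% were lower in both). All 7 passed in limma and DESeq2 and 0 in edgeR, where all 7 had an unadjusted p under 0.05. Their summed levels were 15099 and 14847 CPM, Actc1 the most abundant, against 762 and 1203 CPM in Acta2-lower cells and 714 and 765 CPM in the Lgr5 mice. All 8 alveolar type II markers were lower in Acta2-high cells, 2 of them past the edgeR threshold. Their sum was 67970.1 and 37484 CPM in the Lgr5 mice, 4826 and 30525 CPM in Acta2-lower Lgr6 cells (Sftpc the most abundant) and 43.5 and 93.9 CPM in Acta2-high cells, where Epcam and Lamp3 were at 0. Airway epithelial markers (7 of 8 tested, 5 lower in Acta2-high cells of both mice) summed to 666 and 876, 69.1 and 346, and 5.5 and 3.06 CPM in the same order, with Scgb1a1 or Cyp2f2 the most abundant in the Lgr5 mice. Scgb3a2 and Foxj1 were at 0 in Acta2-lower Lgr6 cells, and Scgb3a2 and Cyp2f2 in Acta2-high cells. Whether RNA of such cells takes part in the class and line differences of the members was not tested beyond leaving out cells with epithelial markers.

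Those cells number 43: 15 and 12 in the Lgr5 mice and 8 in each Lgr6 mouse, by 2 or more of 16 epithelial markers at a log2(TPM + 1) of 5 or more. They were not empty of matrix genes in the Lgr5 line. Among Acta2-lower cells Dcn had a mean log2(TPM + 1) of 6.80 in the 27 Lgr5 cells with such markers and 7.92 in the 29 without, and 0.87 in the 12 Lgr6 cells with and 3.12 in the 48 without. Mgp was 8.65 and 11.18 in the Lgr5 line, and 5.16 and 14.71 in the Lgr6 line.

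Further lists were measured in the same order of groups: Lgr5 mice, Acta2-lower Lgr6 cells, Acta2-high Lgr6 cells. Adventitial fibroblast markers (8 of 8 tested, 7 lower in Acta2-high cells of both mice) summed to 288 and 323, 803 and 593, and 118.2 and 86.5 CPM, with Col14a1 or, in Acta2-lower cells of Lgr6 mouse 2, Dpep1 the most abundant, and Dpp4, Ly6a, Clec3b and Dpep1 at 0 in Acta2-high cells of both mice. Alveolar fibroblast markers (8 of 8 tested, 5 lower) summed to 365 and 184.9, 558 and 1000.3, and 346 and 341 CPM, led by Itga8 or Npnt, with Wnt2 and Tcf21 at 0 in Acta2-high cells. Pericyte markers (6 of 8 tested, 4 higher and 1 lower) summed to 583 and 659, 824 and 515, and 834 and 909 CPM, led by Kcnj8 or Abcc9, with Notch3 and Higd1b at 0 in the Lgr6 mice. Of all genes tested, 26.6% were lower and 26.3% higher in Acta2-high cells of both mice. Scaled by library size, the lower adventitial genes went from 7 to 6 without the deepest cell. The lower alveolar fibroblast genes went from 5 to 4 and the higher from 0 to 1, and the higher pericyte genes from 5 to 3. Fibroblasts of each kind express Dcn, Lum and Fbln1 as well, and the part of these lists in the members' differences was not tested.

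Markers of endothelial, immune, mesothelial and erythroid cells were summed in the same way. Of all genes tested, 26.6% were lower by class in both mice, and 19% were higher in both Lgr5 mice among Acta2-lower cells. Endothelial markers (3 of 8 tested, 2 lower in Acta2-high cells of both mice) summed to 4.18 and 91.1, 190.2 and 9.79, and 0 and 0.627 CPM, with Kdr the most abundant in 3 of the 4 Acta2-lower sums. Immune markers (5 of 8 tested, 2 lower in Acta2-high cells, 1 past the edgeR threshold) summed to 5177 and 7245, 1583 and 6915, and 13.9 and 17.8 CPM, led by Lyz2, which alveolar type II cells share and which gave 95.1% or more of the Acta2-lower sums, with Cd3e at 0 throughout. Mesothelial markers (1 of 6 tested, lower in Acta2-high cells of both mice) summed to 7.58 and 17, 1.43 and 18.4, and 0 and 0.0157 CPM, led by Krt19, with Calb2 at 0 throughout. Erythroid markers (4 of 7 tested, all 4 higher in both Lgr5 mice than in the Lgr6 mice) summed to 329 and 423, 0.267 and 2.09, and 0 and 2.23 CPM, led by Hbb-bh1 in the Lgr5 mice, with Klf1 at 0 throughout. Hbb-bh1 was detected in 100% and 92.9% of the Acta2-lower cells of the Lgr5 mice, at mean log2(TPM + 1) of 10.26 and 9.65. A gene found in nearly every one of these cells does not single out erythroid cells among them. Whether its reads are erythroid RNA was not tested. Pecam1 was at 0 throughout, as the authors kept only cells without it. The part of these markers in the members' line differences was not tested.

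Genes of the response to dissociation, to which Thbs1 and Cyr61 can also respond, moved with the classes. Of the 16, 15 were lower in Acta2-high cells of both Lgr6 mice (26.6% of all genes tested were). In edgeR 10 had an unadjusted p under 0.05 and 0 passed the adjusted threshold, against 2 in limma and 3 in DESeq2. Their summed level was 15442 and 13770.5 CPM in the Lgr5 mice, 18130.3 and 15336 CPM in Acta2-lower and 9723 and 6715 CPM in Acta2-high Lgr6 cells, with Fos the most abundant in Acta2-high cells and 0 of the 16 at 0. Scaled by library size, the 15 lower genes by class became 11 without the deepest cell. Between the lines 9 were higher and 3 lower in the Lgr5 mice over all kept cells, where limma called 7 higher and 1 lower and edgeR and DESeq2 called 0 (4 at an unadjusted p under 0.05 in edgeR). Among Acta2-lower cells 2 were higher and 6 lower, while limma called 2 higher and 0 lower. Scaled by library size, 3 were higher and 4 lower there, and 2 and 3 without the deepest cell. Their part in the differences of the members was not tested.

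Whether the class difference is the same in both lines could not be tested at the limit of 11, since the Lgr5 mice had 1 and 0 Acta2-high cells. At a limit of 10 they had 3 and 4, and edgeR called 0 of 13976 genes in either line or for the difference between lines (the only tool run there), with 1452, 535 and 1034 genes and 7, 7 and 10 of 38 members at an unadjusted p under 0.05 (Lgr5, Lgr6, difference). Ogn was 745 and 703 CPM in Acta2-high and 707 and 691 CPM in Acta2-lower Lgr5 cells, against 3110.2 and 3181 CPM and 684 and 852 CPM in the Lgr6 line. Thbs1 was 12575 and 17241 CPM in Acta2-high and 6854 and 4481 CPM in Acta2-lower Lgr5 cells, and 4089.5 and 2664 CPM and 6693 and 5541 CPM in the Lgr6 line. The difference between the lines was 1.99 log2 units for Ogn and −2.29 for Thbs1, each with an adjusted p of 0.636 in edgeR's quasi-likelihood test.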

How the data were processed

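The authors sequenced full-length cDNA of single cells made by SmartSeq2, assigned paired-end reads to the mm10 transcriptome with kallisto 0.43.0 after bcl2fastq 2.17.1.14, and deposited raw counts per gene for 384 wells (95 single cells and 1 pool well per mouse) and log2(TPM + 1) values for the cells kept. Annotation release is not stated. Per the authors' methods, cells were kept by genes detected, housekeeping expression, reporter, and absence of Ptprc and Pecam1. Deposited counts of the 182 kept cells were added up by mouse, or by mouse and Acta2 class where a sum held at least 3 cells, and tested with edgeR 4.0.16 (filterByExpr, TMM, glmQLFit, Benjamini-Hochberg over all genes tested, threshold 0.05), with the mouse as replicate and, by class, as block. Deposited log2(TPM + 1) values were averaged over cells and tested with limma 3.58.1 (genes with a mean of at least 1 in a group). All 39 members passed the edgeR filter in each comparison; limma tested 36, 38 and 36.

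Lines were compared over all kept cells and over Acta2-lower cells (2 mice against 2), and classes within the 2 Lgr6 mice. Only 1 residual degree of freedom is left by class, with 4.40 from the prior shared over genes. Fold changes are Lgr5 over Lgr6 and Acta2-high over Acta2-lower. Tests were first tested on simulated data. Members, classes and lists (other matrix genes; airway smooth muscle, alveolar and adventitial fibroblast, pericyte, mesothelial, alveolar type II, airway epithelial, endothelial, immune, erythroid and dissociation response genes) were chosen with earlier results of these data known. Of the planned list, 1 erythroid marker is not reported here. Tested fold changes are printed for members past the threshold and for the 8 with the largest fold change among those whose groups did not overlap (between lines, both mice of a line above both of the other; by class, the same direction in each mouse), for the sort genes, and for 5 of the other matrix genes by the same rule; for Eln, the 5 genes most correlated over cells. Values of other members were chosen after they were seen.

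Alternatives were DESeq2 1.42.0, library size in place of TMM, no filters on low values, limma, a pseudocount of 0.1 in place of 1, cells thinned to 99000 reads, cells without epithelial markers, each mouse left out, a replicate block between lines or none by class, and Acta2 limits of 10 and 12. Chosen after seeing the data were leaving out Rn45s, a ribosomal RNA gene with 25.0% to 39.6% of the reads of each sum, and leaving out the deepest cell. The work ran in R 4.3.3 and Python 3.11.15 (pandas 2.3.3, numpy 2.4.6, matplotlib 3.10.9, scipy 1.17.1); gene positions are from GENCODE M21. Pool wells and the wells that the authors removed entered no comparison.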

Additional observations from a re-analysis of the deposited data

Results flagged for a closer look

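Wells that no comparison used also held member reads. The pool wells had reads of 26 and 13 members for Lgr5 mice 1 and 2, and of 24 and 25 members for Lgr6 mice 1 and 2, at total counts of 353310 and 204948, and 66586 and 2203576. In the Lgr5 pools Postn and Hspg2 were at 0 in both mice, and Dcn had 0 reads in mouse 1 and 860 in mouse 2.

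The wells that the authors removed held reads of 39 members in Lgr5 mouse 1, 39 in Lgr5 mouse 2, 39 in Lgr6 mouse 1 and 39 in Lgr6 mouse 2, over 66, 67, 45 and 20 wells. Their median wells detected 28 and 21 members for the Lgr5 mice, against 11 and 12 for the Lgr6 mice, at median counts of 278580.5 and 174049, and 11271 and 439578.5. These are values above the level that 0 reads would give, and what the wells held was not tested.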

How the results depend on the processing

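By edgeR the line difference over all kept cells called 0 genes and 0 members (1312 genes and 19 members at an unadjusted p under 0.05, and 1263 and 12 without the deepest cell). Of the genes tested, it called 4.03% with DESeq2 (4 members), 2.07% with no filter on low counts (10), 13.2% with limma (14), 15.1% with limma at a pseudocount of 0.1 (11), 0.790% with limma and no filter (3) and 0.0600% with thinned cells. Leaving out a mouse gave 0% to 0.217% and 0 to 2 members, the highest without Lgr6 mouse 1.

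By class, edgeR called 8 genes (0.0566%) and 0 members (1006 genes and 17 members at an unadjusted p under 0.05). DESeq2 called 7.6004% and 14 members, limma 1.38% and 4, limma at a pseudocount of 0.1 called 1.56% and 5, thinned cells 0.947% and 7, and the sums without the deepest cell 0.183% and 1. Limma with no filter, edgeR without epithelial-marker cells and edgeR at an Acta2 limit of 10 called 0 genes, and a limit of 12 called 0.00713%. With no replicate block edgeR called 0.163% and 0 members, in place of 0.0566% and 0 with the mouse as block.

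Among Acta2-lower cells, edgeR called 0 genes and 0 members (976 genes and 17 members at an unadjusted p under 0.05, and 921 and 4 without the deepest cell). DESeq2 called 3.002% and 4 members, no filter on low counts 0.818% and 8, limma 6.06% and 4, limma at a pseudocount of 0.1 called 8.39% and 5, limma with no filter 0.195% and 2, and thinned cells 0.0374% and 1 (Mgp). Leaving out a mouse gave 0.0409% to 0.501% and 1 to 7 members, the highest without Lgr6 mouse 2. The lone mouse of a line is then assumed to vary like the others. With a replicate block between the lines edgeR called 0 genes and 0 members in both line comparisons, and the mouse numbers do not pair the animals (r 0.0387 over 14086 genes).

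No member printed with its edgeR test changed the sign of its log2 fold change under any alternative that fitted it, although single mice did without the deepest cell. Among Acta2-lower cells Postn and Ctgf were fitted in 14 alternatives and other members in up to 17. The CPM order of Postn between the lines turned there at an Acta2 limit of 10. Of the members printed without an edgeR test, Dcn and Fbln1 among Acta2-lower cells and Sparc by class turned without the deepest cell. More turned under other alternatives. Of the fold changes of the 8 members followed per comparison, 16 values over all cells, 14 by class and 21 among Acta2-lower cells passed where the main test did not. All values by class from leaving out a Lgr6 mouse are without a test. Sort genes did turn: Lgr6 over all cells, −0.01 in the main test, was 0.11 with DESeq2, 0.063 with library size, 0.29 with limma with or without a filter, 0.39 at a pseudocount of 0.1, 0.45 without epithelial-marker cells, and −0.56 (without Lgr5 mouse 2) to 0.43 (without Lgr5 mouse 1) with a mouse left out. Lgr5 by class was 0.26 at a limit of 10, Lgr6 among Acta2-lower cells −0.25 at a limit of 12, and Acta2 there −0.78 to 0.052 with a mouse left out, the highest without Lgr5 mouse 1. The causes were not tested. Of 84 shares of cells, 82 stayed in their interval after thinning; Postn and Ctgf in Acta2-lower cells of Lgr6 mouse 1 went to 0.

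The class effect in the Lgr5 line and its difference between lines gave no value at limits of 11 and 12, under any alternative, and at 10 only the edgeR fit was run. With 2 mice a line, 1 residual degree of freedom by class and sums that a few deep cells set, a gene that missed the threshold is not shown to be unchanged.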
